A study of Mus musculus with 4 samples.

Results

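The genes described here are those of the Wnt ligands and of the receptors that read them. They were taken by symbol from the matrix of all genes: every row named Wnt or Fzd (Frizzled) followed by a number, plus Lrp5, Lrp6, Ror1, Ror2 and Ryk. This gave 34 of 20325 rows, 19 ligands and 15 receptors and co-receptors. RNA was sequenced from C3H10T1/2, a mouse line of mesenchymal cells that can be driven toward bone, cartilage, fat or muscle. The cells stably carried FLAG-HA-tagged histone H3.3, wild type in 2 libraries (WT) and, in 2 others (K36M), with methionine in place of lysine 36, a change that inhibits H3K36 methyltransferases. Both groups were at passages 10 to 15 in medium with 10% serum, and the labels name no change to the cells' own H3 genes and do not say whether each group is 1 clone or a pool. Nor do they say that replicate libraries came from separate cultures. The spread behind the p-values is thus that between these libraries, largely shared over genes, and may be technical.

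Wnt proteins are secreted, lipid-carrying signals. A Wnt that binds a Frizzled together with LRP5 or LRP6 protects beta-catenin from destruction, and beta-catenin then works with TCF and LEF factors on target genes. ROR1, ROR2 and RYK are single-pass receptors used by other Wnt responses, of which WNT5A is the best known ligand. In mesenchyme the beta-catenin branch favours bone over fat and cartilage.

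Library totals ran from 23343297 to 56041798 expected counts, and K36M libraries were on average 1.85 times as deep as WT libraries. Levels are CPM, counts divided by the effective size of their library, and 3 counts correspond to 0.0528 to 0.13 CPM per library. These floors and the counting intervals below cover counting error only. All 11 mesenchymal markers checked were above 1 CPM in every library; 4 rose, among them Thy1 (11.2-fold), and 5 fell, among them Fn1 (3.04-fold), and their summed level was 44700 to 45000 CPM in WT and 28400 to 30200 in K36M. Epcam and Cldn4 (epithelium), Hbb-b1 (red cells) and Olig2 (glia) had 0 counts in all 4. Other genes of these lists were detected: Hba-a1, also of red cells, had 8 counts in WT and 2393 in K36M. Cdh1, of epithelium, measured 5.89 and 5.56 CPM in WT and 22.3 and 24.1 CPM in K36M, while Krt14 fell 7.44-fold. Of the blood and macrophage markers 4 of 5 tested rose and 0 fell. Of these 4, Hba-a1 and Csf1r passed the low-count filter only through K36M, so they had to be higher. The summed level of all blood and macrophage markers was 7.22 to 7.95 CPM in WT and 40.6 to 42.1 in K36M, there mostly Hba-a1. Of the endothelial markers 1 of 3 rose and 1 fell (summed level 38.2 to 39.6 CPM in WT, 16.7 to 18.6 in K36M). Of the neural and glial 1 of 4 rose and 3 fell (18.7 to 19.6 and 27.8 to 28.2). These counts, and those of the mesenchymal markers, stand beside 38.5% of all genes tested that rose and 37.1% that fell. In bulk RNA a smaller number of cells of 1 kind and less RNA per cell cannot be told apart.

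In K36M cells the ligand genes Wnt5a and Wnt9a rose 1.8-fold and 5.54-fold and Wnt5b fell 2.51-fold, while on the receptor side Fzd9, Fzd8, Ror1 and Lrp5 fell between 6.31-fold and 75.9-fold. Of the 34 genes, 6 had 0 counts in every library (Wnt2, Wnt3, Wnt3a, Wnt8a, Wnt9b and Fzd10), 6 more ligands were too low to be tested, and 22 were tested. Calls below are adjusted p-values under 0.05 in edgeR's quasi-likelihood test with Benjamini-Hochberg adjustment over all 13162 genes tested. By this rule 7 of the 22 rose and 9 fell, where 75.6% of all genes tested were called, 38.5% higher and 37.1% lower, so the count of calls alone is close to that of the whole transcriptome. At least 2-fold changes were called for 10 of the 22, 4 higher and 6 lower, against 21.3% of all genes (12.7% higher and 8.69% lower). Of the 4 higher, Wnt6, Wnt7a and Wnt7b passed the low-count filter only through their K36M libraries, so they had to be higher and nothing is read from that count. The median log2 fold change was -0.08 over the 22 and 0.00 over all genes tested, with a range from -6.25 (Fzd9) to 5.41 (Wnt7a, a fitted value that rests on 1 WT count and was 4.48 without WT replicate 1 and 8.34 without WT replicate 2). In 19 of the 22 all 4 libraries were separated by group, as in 87.1% of all genes tested.

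**Figure D1:**
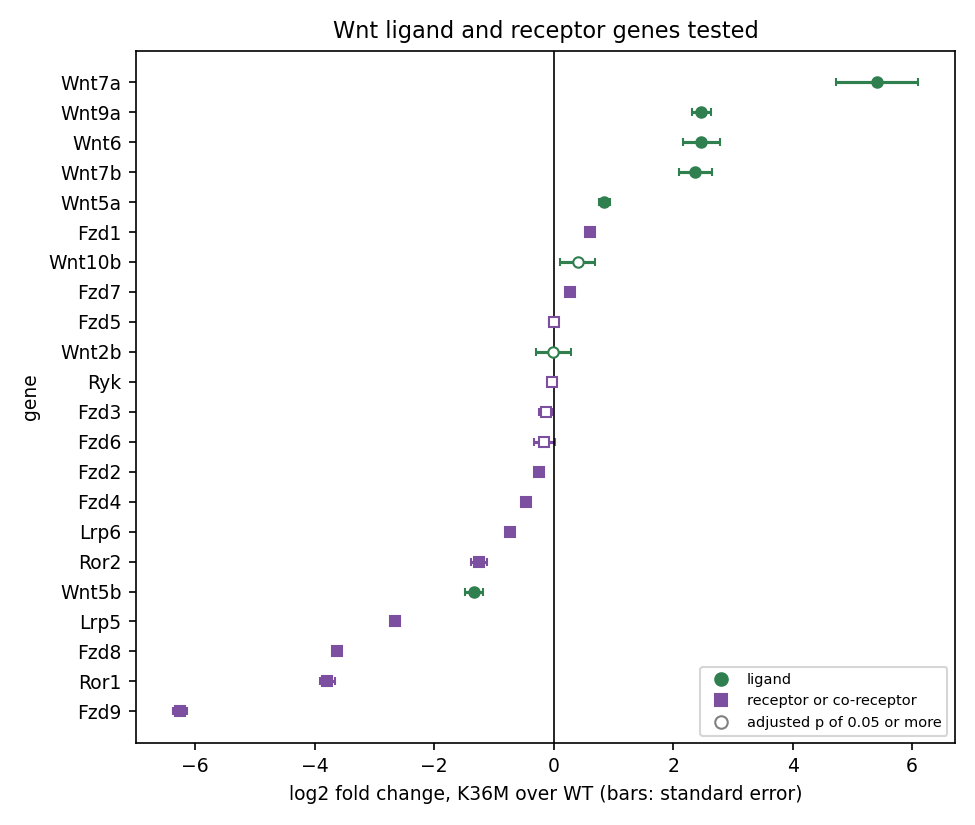
Log2 fold change of K36M over WT (x axis) for the 22 tested genes (y axis), with bars for the standard error, circles for ligands and squares for receptors, and open symbols where the adjusted p was 0.05 or more. Wnt7a (5.41) lies at one end and Fzd9 (-6.25) at the other, and the 4 lowest points are Fzd9, Ror1, Fzd8 and Lrp5.

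Promoters of 24 of the 34 genes were found in the RefSeq table for the build GRCm38.p6, as windows from 250 bases before to 50 bases after a transcription start. They are shown because the histone change acts on chromatin and these genes moved in opposite directions. The motif counted is the dinucleotide CG, which reads the same on both strands and is the site of DNA methylation in mammals. At least 1 CG was present in 94.6% of all 32851 windows in the table and in all 27 windows of these genes. With the richest window of each gene, the median was 32 CG for these genes (range 6 to 58), 22 for the 9315 tested genes in the table and 8 for all its genes, and 19 of the 24 were at or above 22. The 5 genes with a window that rose had a median of 31 CG (16 to 58) and the 5 that fell 32 (10 to 53). Wnt5a and Wnt7b, which rose, and Fzd2, Fzd8, Lrp5 and Lrp6, which fell, have no window in the table. Of those with a window that rose, Wnt6 and Wnt7a passed the low-count filter only through K36M. Wnt9a, which rose, and Fzd9, which fell, were the richest, with 58 and 53. The 250 bases before the start are printed for a gene that rose in each class, Wnt6 (chr1:74771642-74771891, plus strand, 28 CG) and Fzd7 (chr1:59481897-59482146, plus strand, 17 CG), and for the paralogs Ror1 (chr4:100095541-100095790, plus strand, 8 CG) and Ror2 (chr13:53286125-53286374, minus strand, 24 CG), which both fell. Capitals mark each CG, and no annotated GENCODE M21 transcript covers these windows.
Wnt6: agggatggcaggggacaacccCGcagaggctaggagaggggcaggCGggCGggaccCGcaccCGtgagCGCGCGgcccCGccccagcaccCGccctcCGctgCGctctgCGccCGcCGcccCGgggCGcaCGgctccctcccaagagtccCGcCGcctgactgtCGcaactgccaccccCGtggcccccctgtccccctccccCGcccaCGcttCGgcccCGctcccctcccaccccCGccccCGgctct
Fzd7: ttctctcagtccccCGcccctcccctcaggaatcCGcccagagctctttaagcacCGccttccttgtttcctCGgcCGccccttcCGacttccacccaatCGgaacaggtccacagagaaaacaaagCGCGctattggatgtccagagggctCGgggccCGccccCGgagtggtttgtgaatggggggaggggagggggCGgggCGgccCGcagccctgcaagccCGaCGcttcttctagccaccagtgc
Ror1: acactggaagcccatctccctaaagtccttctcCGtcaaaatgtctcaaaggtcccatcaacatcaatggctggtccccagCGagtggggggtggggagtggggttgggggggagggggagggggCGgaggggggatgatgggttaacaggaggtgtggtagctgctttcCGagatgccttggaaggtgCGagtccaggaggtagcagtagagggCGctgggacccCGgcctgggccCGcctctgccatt
Ror2: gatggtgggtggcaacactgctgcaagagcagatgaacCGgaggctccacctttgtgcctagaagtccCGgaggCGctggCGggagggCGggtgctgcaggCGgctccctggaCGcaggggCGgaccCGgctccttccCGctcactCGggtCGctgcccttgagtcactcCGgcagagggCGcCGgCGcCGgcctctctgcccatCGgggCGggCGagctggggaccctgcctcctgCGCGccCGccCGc
The CG content of these few windows did not sort with direction: Ror1 and Ror2 fell with 8 and 24 CG, and Fzd7 rose with 17. Wnt6 is left out of this comparison, since it passed the low-count filter only through K36M. This is a description of the sequence and says nothing of methylation, which was not measured in these libraries.

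Among the ligands, 5 of 8 tested genes rose and 1 fell, where 38.5% of all genes tested rose and 37.1% fell, but 3 of the 5 that rose are the ones the filter kept only through K36M. Wnt5a, the archetype of ligands that act without beta-catenin, measured 8.67 and 7.86 CPM in WT, against 15.3 and 14.3 CPM in K36M. Both K36M libraries lay above both WT libraries, 1.8-fold higher (log2 fold change 0.85 ± 0.0925 SE, adjusted p = 1.56e-07). Its paralog Wnt5b went the other way. It measured 4.4 and 4.48 CPM in WT, against 1.8 and 1.73 CPM in K36M. The groups did not overlap and the gene was 2.51-fold lower (log2 fold change -1.33 ± 0.152 SE, adjusted p = 2.93e-07).

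Wnt9a is a ligand of joint-forming mesenchyme. Its level was 1.21 and 1.65 CPM in WT and 7.62 and 8.26 CPM in K36M. K36M libraries were clear of WT libraries, 5.54-fold higher (log2 fold change 2.47 ± 0.155 SE, adjusted p = 5.55e-11). Wnt6, a ligand made by many epithelia, had 6 and 10 counts (0.242 and 0.434 CPM) in WT and 112 and 60 counts (1.97 and 1.73 CPM) in K36M. The groups were again separate, 5.54-fold apart (log2 fold change 2.47 ± 0.307 SE, adjusted p = 8.1e-07). Wnt6 passed the low-count filter only through K36M, so its direction and separation are not read as a result.

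Wnt7b and Wnt7a form a paralogous pair, and both rose. Wnt7b measured 0.525 and 0.304 CPM in WT, against 2.27 and 2.04 CPM in K36M, without overlap and 5.17-fold higher (log2 fold change 2.37 ± 0.28 SE, adjusted p = 4.22e-07). Wnt7a, a limb patterning signal from dorsal ectoderm, had 0 and 1 counts in WT and 51 and 43 counts in K36M, up to 1.24 CPM. It was hardly detected in WT, and the ratio of depth-scaled counts was 49.1 with a 95% counting interval (Clopper-Pearson) of 8.6 to 1960 (adjusted p = 9.46e-07). These 2 genes and Wnt6 passed the low-count filter only through K36M, so their direction and separation are not read as results. The same genes are known from epithelia, so the epithelial markers are given beside them. Of 9 such markers in the matrix 4 were tested, 3 rose and 1 fell, where 38.5% of all genes tested rose and 37.1% fell. Of the 3 that rose, Krt8 and Esrp1 passed the filter only through K36M, so they had to be higher. The summed level of the 9 markers went from 11 to 12.2 CPM in WT to 24.7 to 26.4 CPM in K36M. In K36M most of it was Cdh1, the E-cadherin gene (5.89 and 5.56 CPM in WT, 22.3 and 24.1 CPM in K36M). Krt14 fell 7.44-fold, and Epcam and Cldn4 had 0 counts in all 4 libraries. Their part in the result was not tested.

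The remaining ligands were near the limit of detection. Wnt10b, a ligand that holds back fat formation, had 32 counts over the WT and 81 over the K36M libraries and did not pass the test (log2 fold change 0.40 ± 0.299 SE, adjusted p = 0.239), and neither did Wnt2b with 38 and 72 counts (-0.01 ± 0.293 SE, adjusted p = 0.978). These standard errors leave room for changes of either sign. Wnt4 had 4 counts in WT and 26 in K36M, a ratio of 3.39 (1.18 to 13.4). Wnt11 had 5 and 23 counts, a ratio of 2.4 (0.893 to 8.09). Both were under the filter, and only the Wnt4 interval leaves out 1. Wnt1 had 6 counts in WT and 2 in K36M, 5.75-fold lower with an interval of 1.03-fold to 58.2-fold. Wnt10a went from 0 counts over both WT libraries to 10 in K36M, a ratio of 1.74 against a floor of 3 counts over the WT group. Wnt8b had 0 and 6 counts, a ratio of 1.04 on the same floor, and Wnt16 had 0 and 1, too few for a ratio. The ratios on the floor take the K36M counts as exact, so they are not lower limits. With no filter on low counts edgeR also called Wnt4 (log2 fold change 1.72, adjusted p = 0.043) and Wnt10a (adjusted p = 0.0463) higher. It did not call Wnt1 (adjusted p = 0.123), Wnt8b (0.155), Wnt11 (0.158) or Wnt16 (0.605).

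**Figure D2:**
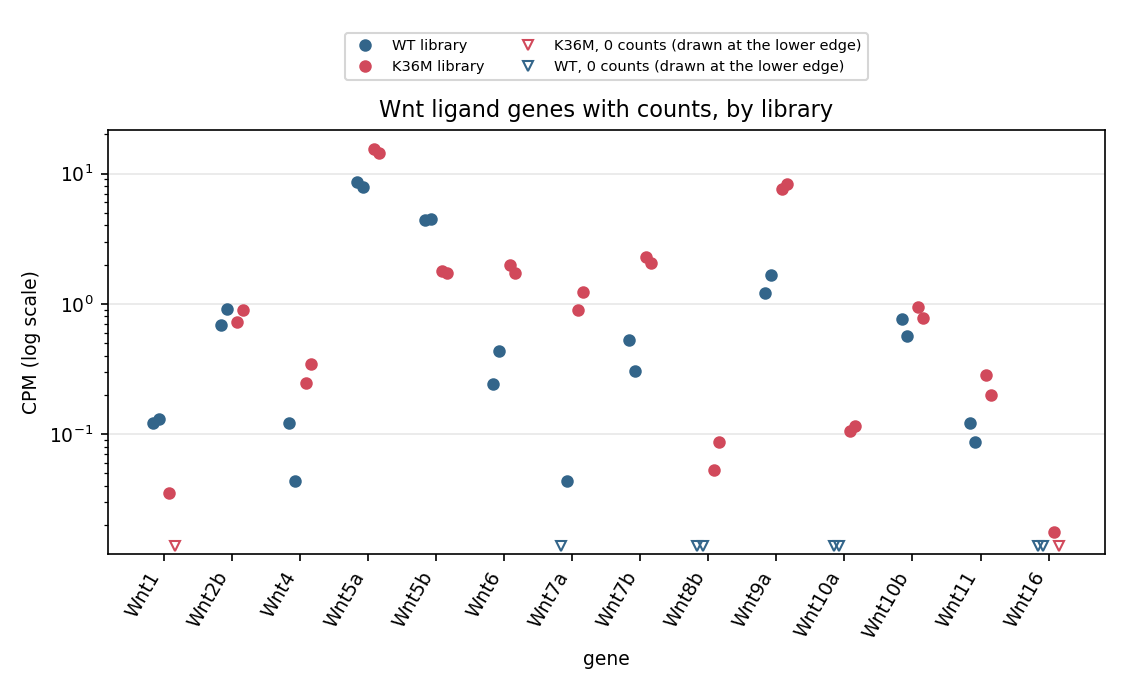
Level of each Wnt ligand gene with any counts (x axis) in CPM on a log scale (y axis), with 1 point per library, blue for WT and red for K36M, and open triangles at the lower edge for libraries with 0 counts. Wnt5a, Wnt6, Wnt7a, Wnt7b and Wnt9a have both K36M points above both WT points, Wnt5b has them below, and Wnt2b overlaps.

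Several ligand genes lie side by side in the mouse genome, with no other coding gene between them in the RefSeq order on GRCm38. Of these pairs, Wnt6 and its neighbour Wnt10a on chromosome 1 both had a higher level in K36M. Wnt10a had only 10 counts there and was under the filter, and Wnt6 passed the filter only through K36M. Wnt9a rose beside Wnt3a on chromosome 11, which had 0 counts throughout. Wnt9b and Wnt3, also on chromosome 11, both had 0 counts. On chromosome 15 Wnt10b did not pass the test and Wnt1 had 6 counts in WT and 2 in K36M. Neighbours thus did not always share a level.

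On the receptor side 8 of 14 tested genes fell and 2 rose (median log2 fold change -0.35), where 37.1% of all genes tested fell and 38.5% rose, and no rise reached 2-fold. Fzd9, a Frizzled known from bone-forming cells, measured 46.2 and 44 CPM in WT, against 0.511 and 0.719 CPM in K36M. That is 2157 counts against 54 in the deeper libraries, with no overlap and a 75.9-fold fall (log2 fold change -6.25 ± 0.116 SE, adjusted p = 5.85e-19). Fzd8, a receptor with high affinity for several Wnts, measured 115 and 111 CPM in WT, against 9.54 and 8.81 CPM in K36M. It remained detected in K36M but was 12.3-fold lower in both libraries alike (log2 fold change -3.62 ± 0.0567 SE, adjusted p = 4.19e-20).

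The other Frizzled genes moved much less. Fzd1 measured 149 and 148 CPM in WT, against 233 and 219 CPM in K36M. It was 1.52-fold higher (log2 fold change 0.61 ± 0.0407 SE, adjusted p = 1.57e-10), the largest rise among the receptors tested. Fzd7, a close relative of Fzd1 and Fzd2, rose 1.21-fold (123 ± 1.1 to 149 ± 4.53 CPM, SD, n = 2, edgeR adjusted p = 9.68e-06), and Fzd2 fell 1.18-fold (237 ± 5.53 to 200 ± 21 CPM, edgeR adjusted p = 0.000439). Fzd4, which is also the receptor for norrin in blood vessels, fell 1.38-fold (33.4 ± 2.25 to 24.2 ± 0.485 CPM, edgeR adjusted p = 1.65e-06). Fzd3 (log2 fold change -0.13 ± 0.109 SE), Fzd5 (0.00 ± 0.071) and Fzd6 (-0.16 ± 0.175) did not pass the test (adjusted p = 0.283, 0.97 and 0.42), and a 1.5-fold change in either direction lies more than 2 standard errors from the values of Fzd3 and Fzd5. Fzd6, with 109 counts in WT and 187 in K36M, is less certain: with all libraries thinned to the depth of the shallowest it was called lower (log2 fold change -0.58, edgeR adjusted p = 0.0236).

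The LRP co-receptors, which the beta-catenin branch needs, both fell. Lrp5, whose loss lowers bone mass, measured 442 and 450 CPM in WT, against 74.8 and 65.9 CPM in K36M. All libraries were separated by group, with a 6.31-fold fall (log2 fold change -2.66 ± 0.0493 SE, adjusted p = 5.86e-19). Lrp6, its paralog, measured 230 and 251 CPM in WT, against 146 and 144 CPM in K36M. Its fall was 1.66-fold (log2 fold change -0.73 ± 0.0432 SE, adjusted p = 2.31e-11). The difference between the falls of Lrp5 and Lrp6 was not tested.

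The ROR tyrosine kinase-like receptors fell as well. Ror1 measured 17.3 and 15.8 CPM in WT, against 1.11 and 1.32 CPM in K36M, without overlap. It was 13.8-fold lower (log2 fold change -3.79 ± 0.125 SE, adjusted p = 3.19e-15). Ror2, the main WNT5A receptor of limb and cartilage, measured 8.11 and 7.43 CPM in WT, against 3.63 and 2.76 CPM in K36M, a 2.38-fold fall (log2 fold change -1.25 ± 0.132 SE, adjusted p = 9.35e-08). Ryk measured 153 and 151 CPM in WT, against 146 and 152 CPM in K36M. Its groups overlapped and it did not pass the test (log2 fold change -0.03 ± 0.0409 SE, adjusted p = 0.546).

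**Figure D3:**
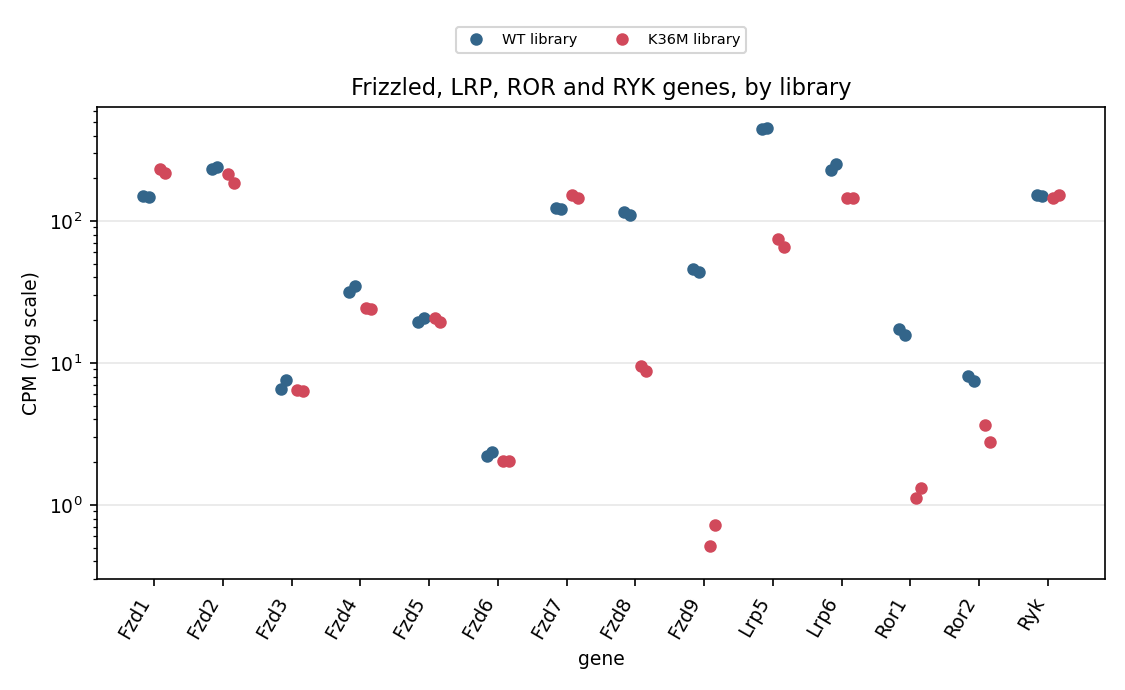
Level of the Frizzled, LRP, ROR and RYK genes with counts (x axis) in CPM on a log scale (y axis), with 1 point per library, blue for WT and red for K36M. Fzd8, Fzd9, Lrp5 and Ror1 have K36M points far below the WT points, while Fzd5 and Ryk overlap.

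To set genes against each other, CPM were divided by the length in kilobases of 1 GENCODE M21 transcript per gene, since longer transcripts give more reads. On this per-length scale Fzd2 was the highest Frizzled in WT (63.6 and 65.7 CPM per kb), followed by Fzd1 (35.5 and 35.3) and Fzd7 (27.3 and 27). Fzd9 (20.1 and 19.2) and Fzd8 (19.3 and 18.6) came next and overlapped each other. In K36M Fzd2 (58.6 and 50.6 CPM per kb) and Fzd1 (55.4 and 52.2) overlapped, with Fzd7 at 33.6 and 32.1. The Frizzled sum went from 174 and 175 CPM per kb in WT to 157 and 144 in K36M. Of that sum Fzd9 held 11.5% and 11% in WT and 0.142% and 0.218% in K36M, and Fzd8 11.1% and 10.6% against 1.02% in each K36M library. The share of Fzd1 went from 20.3% and 20.2% to 35.3% and 36.3%.

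Ligand transcripts were scarce next to receptor transcripts on the same scale. Their sum was 4.41 and 4.45 CPM per kb in WT and 8.07 and 7.97 in K36M. Wnt5b was the highest in WT (42.1% and 42.4% of the sum) and held 9.39% and 9.14% in K36M. Wnt9a had 8.28% and 11.2% in WT and 28.5% and 31.2% in K36M, next to Wnt5a at 28.1% and 25.2% and at 27.1% and 25.7%. Of the LRP, ROR and RYK genes, Lrp5 was highest in WT (85.6 and 87.2 CPM per kb) and Ryk in K36M (58.2 and 60.8), where Lrp5 (14.5 and 12.8) lay just under Lrp6 (15.6 and 15.3). These orders rest on GENCODE lengths, since the sources used here do not name the transcript models the authors counted on.

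**Figure D4:**
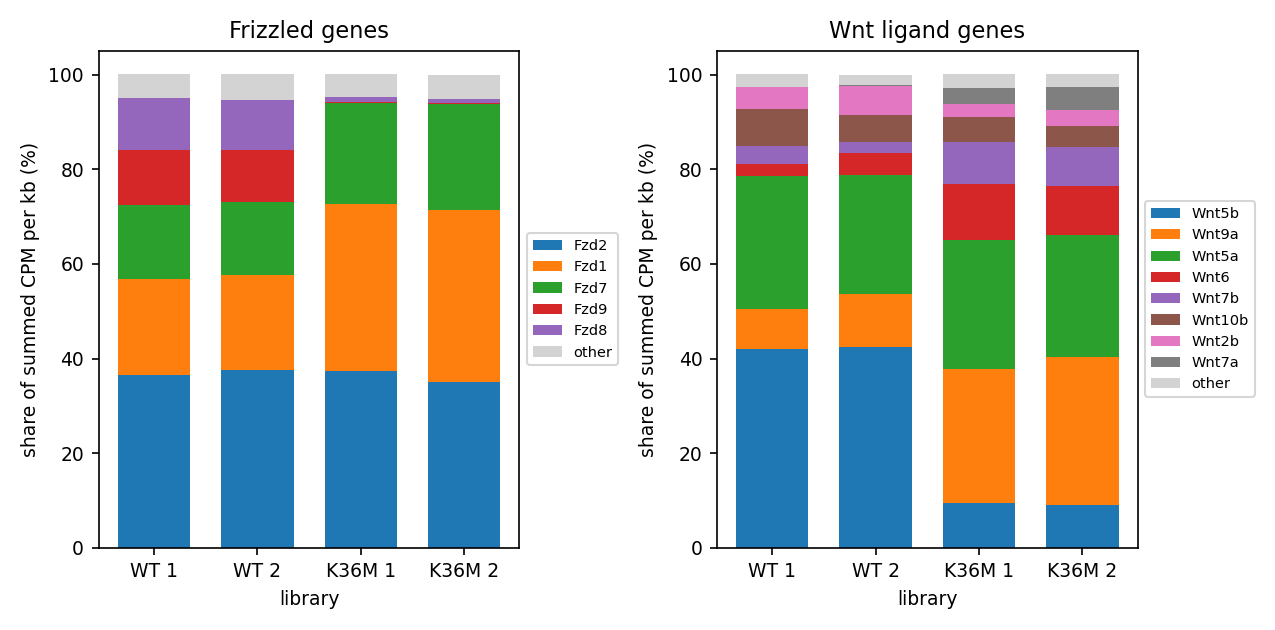
Share (y axis, percent) of each gene in the summed CPM per kb of the Frizzled genes (left) and of the Wnt ligand genes (right) in each library (x axis); genes with under 3% in both groups are grouped as other. Fzd8 and Fzd9 are nearly gone from the K36M bars, where the share of Wnt5b is smaller and that of Wnt9a larger. Wnt6, Wnt7a and Wnt7b also have larger shares there, but passed the low-count filter only through K36M.

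The authors' deposited table of 594 genes, 2.92% of the matrix rows, lists 4 of the 34 genes. Its ratios of K36M over WT in the authors' deposited table were 0.0135 for Fzd9, 0.071 for Ror1, 0.0766 for Fzd8 and 20.1 for Wnt7a. Lrp5 and Wnt9a, with smaller fold changes, are not among them.

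The rest of the pathway was read from 7 lists of 80 symbols, of which 77 have a row in the matrix and 67 were tested. Of these 28 rose and 26 fell (median log2 fold change 0.05), again close to the share of all genes. The counts of each list below stand beside 38.5% of all genes tested that rose and 37.1% that fell. Among the R-spondins, LGR receptors and the ubiquitin ligases RNF43 and ZNRF3, which together set how long Frizzleds stay at the surface, 5 of 8 rose and 3 fell (median 1.60). Lgr4 measured 773 and 781 CPM in WT, against 70.6 and 74.3 CPM in K36M, 10.7-fold lower (edgeR adjusted p = 1.04e-21). Its paralog Lgr5 had 2 counts in WT and 408 in K36M, a ratio of 107 with a counting interval of 29.3 to 883 (edgeR adjusted p = 2.59e-11). Rspo1, a ligand of these receptors, rose from 0.242 and 0.391 CPM to 4.81 and 4.92 CPM, 15.3-fold (edgeR adjusted p = 3.16e-11). Rspo2, the R-spondin with the highest level in both groups, went the other way. It fell 7.92-fold, from 328 and 329 CPM to 41.9 and 41 CPM (edgeR adjusted p = 9.58e-21). Rspo3 rose 3.83-fold, from 3.67 and 3.35 CPM to 13.3 and 13.7 CPM (edgeR adjusted p = 1.05e-11). The opposite directions of Lgr4 and Lgr5 are not read as a result, since the filter fixed that of Lgr5. Lgr5, Rspo1 and Rnf43 passed the low-count filter only through K36M, so they had to be higher. The same holds for Axin2, Sostdc1 and Camk2b of lists described further on. Musk and Sfrp2, also of those lists, passed it only through WT, so they had to be lower. The counts and medians of the lists that hold these genes are therefore partly set by the filter.

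Genes that export Wnts moved little. Wls, the carrier of Wnts to the cell surface, rose 1.45-fold (312 and 320 to 450 and 465 CPM, edgeR adjusted p = 1.84e-10), Vps35, which recycles it, rose 1.19-fold (edgeR adjusted p = 5.03e-06), and Porcn, which adds the lipid, fell 1.28-fold (edgeR adjusted p = 0.00356). Of these 4 tested genes 2 rose and 1 fell (median 0.15). Among 4 receptor helpers 1 rose and 3 fell (median -1.18). Reck, which with Gpr124 presents WNT7 ligands to Frizzleds, fell 4.71-fold from 122 CPM in each WT library to 25.6 and 26.3 CPM (edgeR adjusted p = 4.83e-18), whereas Gpr124 rose 1.1-fold (edgeR adjusted p = 0.00514) and Ptk7, a polarity receptor, fell 1.08-fold (edgeR adjusted p = 0.043).

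Of 8 tested genes in the list of secreted inhibitors 4 rose and 2 fell (median 0.66). The list also holds Kremen1 and Kremen2, which encode membrane proteins and did not pass the test (edgeR adjusted p = 0.232 and 0.438). Frzb, a Frizzled-like decoy of cartilage, fell from 61.8 and 62.2 CPM to 0.74 and 0.835 CPM, 79.5-fold (edgeR adjusted p = 1.54e-20). Sfrp2, a related decoy, stood at 185 and 183 CPM in WT and 0.299 and 0.489 CPM in K36M (edgeR adjusted p = 2.42e-22). Notum, an enzyme that strips the lipid from Wnts, went from 1.94 and 2.26 CPM to 44.4 and 41 CPM (edgeR adjusted p = 1.38e-17).

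Of 15 tested cytoplasmic transducers 7 rose and 5 fell (median 0.06). Axin2, a feedback gene often used as a readout of beta-catenin signaling, had 0.121 and 0.13 CPM in WT and 3.91 and 3.17 CPM in K36M, 27.9-fold higher (edgeR adjusted p = 1.86e-10). Nkd1, another feedback gene, rose 4.52-fold (2.26 and 1.91 to 9.95 and 8.84 CPM, edgeR adjusted p = 5.66e-11). Ctnnbip1, which blocks the binding of beta-catenin to TCF factors, fell 4.81-fold (111 and 107 to 22.5 and 22.9 CPM, edgeR adjusted p = 6.04e-18). Of 12 nuclear factors 1 rose and 7 fell (median -0.43), beside 38.5% and 37.1% of all genes tested. Tcf7 fell 7.56-fold (19.3 and 20.5 to 2.55 and 2.73 CPM, edgeR adjusted p = 6.7e-15) and Tcf7l2 4.99-fold (107 and 120 to 23.3 and 22 CPM, edgeR adjusted p = 4.59e-17), while the co-repressor gene Tle4 rose 4.81-fold (3.55 and 2.69 to 15.4 and 14.7 CPM, edgeR adjusted p = 3.67e-12).

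In the planar polarity and calcium arms 8 of 16 tested genes rose and 5 fell (median 0.13). Daam2, which links Dishevelled to actin, rose 4.3-fold (2.02 and 1.87 to 8.42 and 8.35 CPM, edgeR adjusted p = 5.76e-11). Nfatc4, a calcium-driven transcription factor, rose 3.17-fold (43.4 and 44.8 to 143 and 136 CPM, edgeR adjusted p = 4.57e-16). Celsr2, a polarity cadherin, fell 3.41-fold (1.78 and 2.22 to 0.511 and 0.691 CPM, edgeR adjusted p = 4.72e-06). None of these lists was tested as a set.

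**Figure D5:**
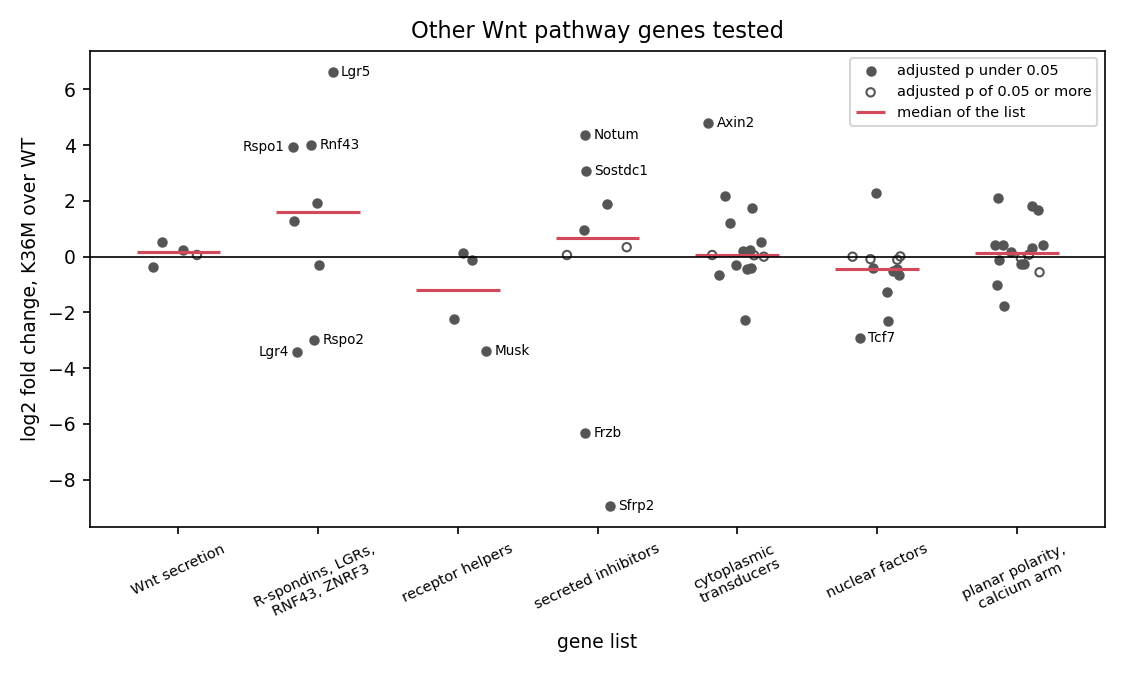
Log2 fold change of K36M over WT (y axis) for the 67 tested genes of the 7 other Wnt pathway lists (x axis), 1 point per gene, open where the adjusted p was 0.05 or more, with a red line at each list's median. The widest spread is in the R-spondin and LGR list and in the secreted inhibitors, where Sfrp2 and Frzb fell and Notum rose.

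The sources used here do not say whether the libraries kept strand. Exons of Fzd5, Fzd6, Wnt5a, Wnt7b and Wnt11 overlap genes on the opposite strand in GENCODE M21, none of which has a row in the matrix, so reads of these 5 genes and of their antisense partners cannot be told apart.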

How the data were processed

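RNA of 4 libraries was analysed, WT and K36M replicates 1 and 2, grouped by title. Per the file headers, the deposited matrix holds expected counts from RSEM, which the authors used for EBSeq. Per the submitters' processing notes, RSEM 1.2.12 and Bowtie 1.0.0 were used with mm9. In the deposited table of 594 genes the values equal log2 of the count times 1 factor per library plus 1 (largest difference 5e-09), and the authors' fold is a linear ratio.

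Counts were rounded and fitted in R 4.3.3 with edgeR 4.0.16 (filterByExpr, TMM, quasi-likelihood F test, Benjamini-Hochberg over 13162 genes, 2 residual degrees of freedom). The spread shared over genes entered with 15.7 prior degrees of freedom. The p-value of a gene thus rests mostly on that shared spread and less on its own replicates. The test was tried on simulated data. SE is the absolute log2 fold change over the square root of F. Counts of replicates differed beyond sampling noise, with a mean chi-square of 3.56 for WT and 7.04 for K36M. This cannot tell separate libraries from 1 library sequenced again, since expected counts and sequencing runs can add spread beyond sampling noise. Alternatives used limma 3.58.1 and DESeq2 1.42.0. Full values were given for genes called with at least 1.5-fold change. Per pathway list they were given for the 3 largest called changes with at least 1 CPM in a group. Rspo2 and Rspo3 were added beside Rspo1. The genes and lists were chosen with earlier results of these data known.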

Additional observations from a re-analysis of the deposited data

How the results depend on the processing

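All 16 called genes of the ligands and receptors kept their call and direction under DESeq2 size factors, upper quartile, total counts, the authors' factors, no low-count filter, the DESeq2 Wald test, limma-voom, thinning to the shallowest library and without each library in turn. At a mean of at least 5 CPM, which leaves 14 of the 22 tested genes, 3 were higher and 8 lower, since Wnt5b, Wnt6, Wnt7a, Wnt7b and Wnt9a were not tested, and 18 other pathway genes were higher. Calls were gained by Ryk under the authors' factors (log2 fold change -0.11, adjusted p = 0.02), Fzd6 in the thinned draw (-0.58, 0.0236) and Wnt4 without WT replicate 1. Genes that did not pass the test changed sign: Fzd5 to 0.00 under DESeq2 size factors, 0.04 under upper quartile, 0.05 under total counts, 0.02 at a mean of 5 CPM, and 0.04 without WT replicate 2 and without K36M replicate 2 (-0.05 to 0.04 when leaving out 1 library). Ryk went to 0.01 under upper quartile, 0.02 under total counts and 0.01 without K36M replicate 1 (range -0.06 to 0.01). Wnt2b went to 0.03 under upper quartile, 0.04 under total counts, 0.01 with the DESeq2 Wald test, 0.20 without WT replicate 2 and 0.17 without K36M replicate 1 (range -0.21 to 0.20).

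Same-numbered libraries share only a number (correlation of their deviations 0.0026). With the replicate block the same 16 genes were called, 7 higher and 9 lower, with 28 and 25 other pathway genes and 5008 and 4796 of all genes, and Wnt2b went to 0.02.

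Scaling moved the median of all genes by at most -0.0862 (authors' factors), under which 4360 genes were higher and 5709 lower. Low counts limit what can be said of the ligands other than Wnt5a, Wnt5b and Wnt9a.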
